A study of Canis lupus familiaris with 12 samples.

Results

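The genes described here encode the enzymes and the carrier that make serine and pass its carbon into the folate pool, together with asparagine synthetase. They were chosen by symbol from a list of 10 names (PHGDH, PSAT1, PSPH, SHMT1, SHMT2, MTHFD1, MTHFD1L, MTHFD2, SLC25A32 and ASNS) by what they encode, not by a cutoff on their values. The names were chosen with earlier results of these data known. Of the 10 names 9 were matched among the 29822 genes of the tables, and PHGDH was not analysed here. All 9 had enough reads to be tested.

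The libraries are polyadenylated RNA from peripheral blood mononuclear cells (PBMCs, the lymphocytes and monocytes of blood) of healthy, specific pathogen-free male beagles kept as blood donors, isolated on a density gradient and cultured for 24 h in a medium with fetal bovine serum, antibiotics and 2-mercaptoethanol. Cultures received no addition (untreated), 5-aminolevulinic acid (ALA, a heme precursor) at 1.0 mM, concanavalin A (ConA, a lectin widely used to make T cells proliferate) at a dose of 0.5 µg/ml, or both (ConA+ALA). There are 12 libraries, 3 in each of the 4 groups, and their titles carry the numbers 1, 2 and 3. Whether a number stands for an animal is not said in the labels, so the p-values rest on a spread among samples that may be technical.

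Cells make serine from a glycolytic intermediate through PHGDH, PSAT1 and PSPH in turn. Serine hydroxymethyltransferase, SHMT2 in mitochondria and SHMT1 in the cytosol, then splits serine into glycine and a carbon unit carried by folate. In mitochondria MTHFD2 oxidises that unit and MTHFD1L releases it as formate, which leaves for the cytosol, where MTHFD1 loads it back onto folate for the building of purines and thymidylate. SLC25A32 is the carrier through which folate enters mitochondria, and ASNS makes asparagine. Activated T cells are known to raise the mitochondrial arm of this pathway as they prepare to divide, and the transcription factor ATF4 is a known activator of several of these genes.

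Exon reads per library ranged from 13390692 to 21517099, and those of the 9 genes together from 6583 to 32570. Libraries of number 1 stood apart from those of numbers 2 and 3. Genes of the mitochondrial genome made up 3.59 to 4.82% of exon reads in number 1, against 11.8 to 23.3% in the others. With ConA this share was above that of the untreated library in each number (3.98 and 4.48%, 12.7 and 23.3%, 13.1 and 17.2%). Introns took a smaller share of the reads within genes in each number (untreated and ConA 32.7 and 29.1%, 39.7 and 35.1%, 36.2 and 34.5%). The part of either in the results with ConA was not tested. Defining markers of T cells (12 of 12 genes with a row), B cells (9 of 9) and monocytes (10 of 10) were detected in every library, as the label PBMC implies. In these bulk samples, fewer cells of a type and less RNA per cell cannot be told apart. Levels below are CPM, exon reads divided by the scaled library size, unless TPM is named. TPM also divides by exon length and does not use that scaling.

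To describe this pathway under ConA in the mixed cells, ConA cultures were compared with untreated ones. With ConA 7 of the 9 genes rose, 0 fell and 2 did not pass (quasi-likelihood test of edgeR, p adjusted after Benjamini and Hochberg over all 13358 genes tested, threshold 0.05). Over all genes tested 9.93% rose and 8.57% fell. The median log2 fold change of the 9 genes was 1.67, against −0.05 over all genes. The mitochondrial enzymes SHMT2 (6.27-fold), MTHFD1L (5.14-fold) and MTHFD2 (3.52-fold) rose with ASNS (3.82-fold), PSAT1 (3.19-fold), the carrier SLC25A32 (2.55-fold) and the cytosolic MTHFD1 (1.94-fold), and the cytosolic SHMT1 and the serine phosphatase PSPH did not pass. With the replicate number as a term of the model the count was 7 higher and 1 lower, the latter SHMT1, beside 21.3% of all genes higher and 21.2% lower. As equally numbered libraries varied together, this count stands. In 7 of the 9 genes every ConA library lay above every untreated library in CPM, as did 17.3% of all genes. In TPM the groups of MTHFD1, MTHFD2 and SLC25A32 overlapped, so their separation depended on the scaling of libraries. Without the 4 libraries of number 2 only MTHFD1L of the 9 still rose by the test, but so did only 42 of 13595 genes, and the median of the 9 was 1.65. Without those of number 3 the count was 4, with 592 of 13513 genes and a median of 1.91.

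**Figure D1:**
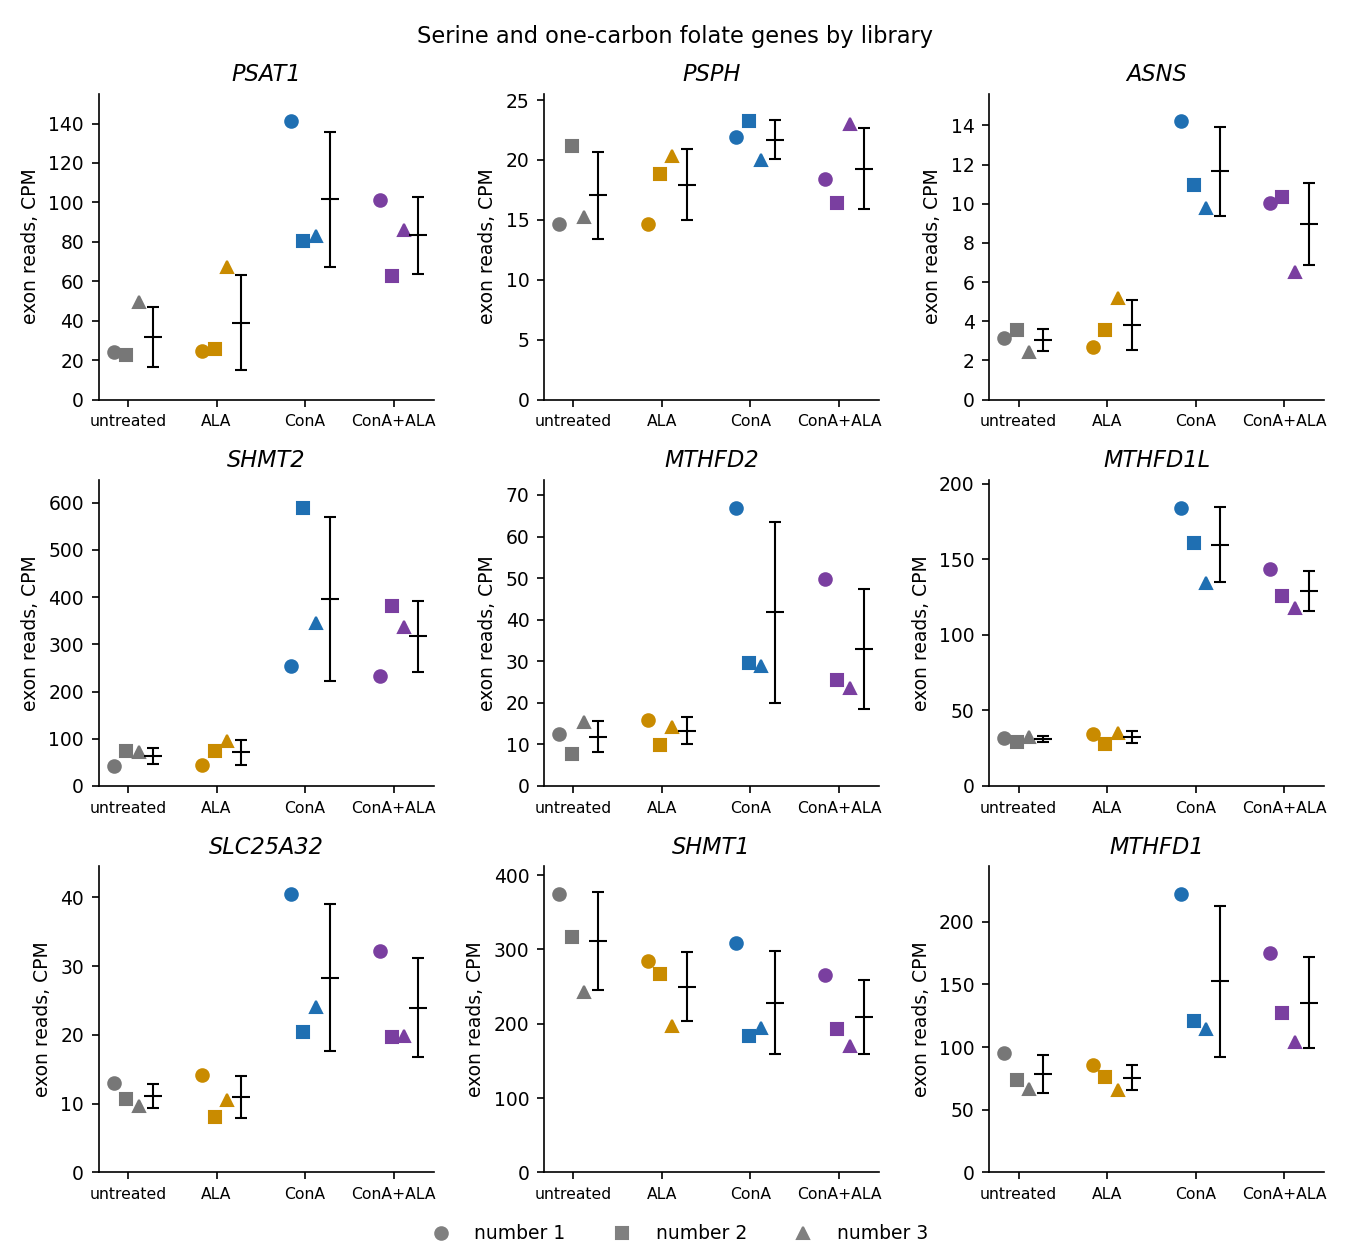
Exon reads of the 9 genes in CPM (vertical axes, from 0) in the 12 libraries by group, with the marker shape giving the library's number and the bar giving mean ± SD (n = 3). MTHFD1L runs from 29.0 to 34.8 without ConA and from 118 to 184 with it, while the groups of PSPH and of SHMT1 overlap.

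SHMT2, the mitochondrial enzyme that takes the carbon unit from serine (ENSCAFG00000000195, CanFam3.1 chromosome 10, 1356706 to 1362305, 12 annotated exons), stood at 43.2, 74.7 and 71.6 CPM in untreated libraries 1, 2 and 3 and at 255, 589 and 345 with ConA. The groups did not overlap, and number 1 had the lowest value in both. Its log2 fold change was 2.65 ± 0.39 (SE, adjusted p = 0.0011), the largest of the 9. The call held in each of the 12 fits without 1 library.

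MTHFD1L, the mitochondrial formate-releasing enzyme (ENSCAFG00000000413, chromosome 1, 41309419 to 41495216, 30 annotated exons), had 31.5, 29.0 and 32.7 CPM in untreated libraries and 184, 161 and 134 with ConA. The spread within untreated cells was small (SD 1.86), and each number rose by at least 2.04 on the log2 scale. The log2 fold change was 2.36 ± 0.19 (adjusted p = 0.00013). Of the 9 genes it had the lowest p, and it kept its call in each of the 12 fits without 1 library and the 3 fits without 1 number.

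MTHFD2, the mitochondrial dehydrogenase of the pathway (ENSCAFG00000008716, chromosome 17, 48883724 to 48941949), had 12.6, 7.76 and 15.3 CPM in untreated libraries and 66.9, 29.5 and 28.9 with ConA. The groups did not overlap in CPM, and ConA library 1 was above the other ConA libraries. In TPM they overlapped (5.95 to 14.8 untreated, 14.2 to 62.9 with ConA). Its log2 fold change was 1.82 ± 0.42 (adjusted p = 0.011), with 2.41, 1.93 and 0.92 in numbers 1, 2 and 3. Counted over the whole gene, introns included, its log2 fold change was 0.39 and did not pass (adjusted p = 0.19). The annotated gene spans MOB1A and the end of BOLA3 on the opposite strand, and 95.1% of the reads within it were intronic. The use of strand in counting was not stated, so reads of MOB1A and BOLA3 cannot be told apart from its own intron reads. Exon reads per library numbered 315 to 2030 for MOB1A and 333 to 857 for BOLA3. Intron reads of MTHFD2 numbered 6553 to 11145, and their source was not tested. Reads spanning its exon junctions numbered 190, 55 and 172 in untreated libraries and 1028, 213 and 248 with ConA.

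SLC25A32, the mitochondrial folate carrier (ENSCAFG00000028968, chromosome 13, 4648759 to 4835023), had 13.01, 10.6 and 9.71 CPM in untreated libraries and 40.5, 20.5 and 24.1 with ConA. The groups did not overlap in CPM, and library 1 was again highest in both. In TPM they overlapped (5.26 to 11.7 untreated, 7.51 to 29.0 with ConA). The log2 fold change was 1.35 ± 0.32 (adjusted p = 0.013). The call was lost without ConA 1 (adjusted p = 0.055, log2 fold change 1.00) or untreated 2 (adjusted p = 0.051). With the block SLC25A32 rose (1.30 ± 0.18, adjusted p = 4.1e-05), as did 21.3% of all genes. This gene also overlaps 5 others in the annotation, among them FZD6, with 1294 exon reads over the 12 libraries.

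MTHFD1, the cytosolic enzyme that joins formate to folate (ENSCAFG00000015967, chromosome 8, 38831860 to 38889453, 30 annotated exons), had 95.5, 74.0 and 66.3 CPM in untreated libraries and 222, 121 and 115 with ConA. The groups did not overlap in CPM, and the log2 fold change was 0.96 ± 0.29 (adjusted p = 0.038). In TPM they overlapped (30.4 to 72.5 untreated, 37.4 to 134 with ConA). Number 2 stood at 36.6 TPM untreated and 37.4 with ConA. In the fit without the block its call rested on several libraries. It was lost without ConA 1 (log2 fold change 0.58, adjusted p = 0.15), untreated 2 (adjusted p = 0.11), untreated 3 (adjusted p = 0.11), ALA 2 (adjusted p = 0.056) or ConA+ALA 2 (adjusted p = 0.056). It was also lost without a filter on low counts (adjusted p = 0.051), with total gene reads (adjusted p = 0.12) and with only the compared groups in the fit (adjusted p = 0.083), in 11 of 27 alternatives in all. With the block MTHFD1 rose (0.91 ± 0.14, adjusted p = 8.6e-05), as did 21.3% of all genes.

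SHMT1, the cytosolic serine hydroxymethyltransferase (ENSCAFG00000018253, chromosome 5, 41221562 to 41253166, 13 annotated exons), had 374, 317 and 242 CPM in untreated libraries and 309, 183 and 194 with ConA. The groups overlapped because ConA 1 lay above untreated 3. The log2 fold change was −0.45 ± 0.28 (95% interval −1.05 to 0.15, adjusted p = 0.29), with −0.28, −0.79 and −0.32 in numbers 1, 2 and 3. In a model with the replicate number as block SHMT1 fell (−0.46 ± 0.13, adjusted p = 0.012), beside 21.2% of all genes that fell in that model. The 7 genes that rose in the model without the block also rose with it, beside 21.3% of all genes.

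Of the serine synthesis enzymes, PSAT1, the aminotransferase (ENSCAFG00000001570, chromosome 1, 80377115 to 80408162, 11 annotated exons), had 23.9, 22.4 and 49.4 CPM in untreated libraries and 141, 80.5 and 83.2 with ConA. Untreated 3 was above the other untreated libraries, and the rise differed by number (2.56, 1.84 and 0.75 on the log2 scale). The log2 fold change was 1.67 ± 0.44 (adjusted p = 0.021). The call was lost without ConA 1 (adjusted p = 0.068), untreated 1 (adjusted p = 0.079) or untreated 2 (adjusted p = 0.077). It was also lost without all libraries of number 1 (log2 fold change 1.21) or of number 2, with adjusted p up to 0.17. With the block PSAT1 rose (1.77 ± 0.40, adjusted p = 0.0084), as did 21.3% of all genes.

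PSPH, the phosphatase of the last step (ENSCAFG00000010123, chromosome 6, 493176 to 512089, 7 annotated exons), had 14.7, 21.2 and 15.2 CPM in untreated libraries and 21.9, 23.2 and 19.97 with ConA. The groups overlapped, and the log2 fold change was 0.35 ± 0.23 (95% interval −0.15 to 0.85, adjusted p = 0.32). The 95% interval of PSAT1 runs from 0.72 to 2.63.

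ASNS, asparagine synthetase (ENSCAFG00000002222, chromosome 14, 22718042 to 22734054, 13 annotated exons), was the least abundant of the 9 per length, with 42 to 369 exon reads per library. It had 3.15, 3.56 and 2.44 CPM in untreated libraries and 14.2, 10.9 and 9.81 with ConA. The groups did not overlap, and the log2 fold change was 1.93 ± 0.34 (adjusted p = 0.0026), with 2.17, 1.62 and 2.01 in the 3 numbers.

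**Figure D2:**
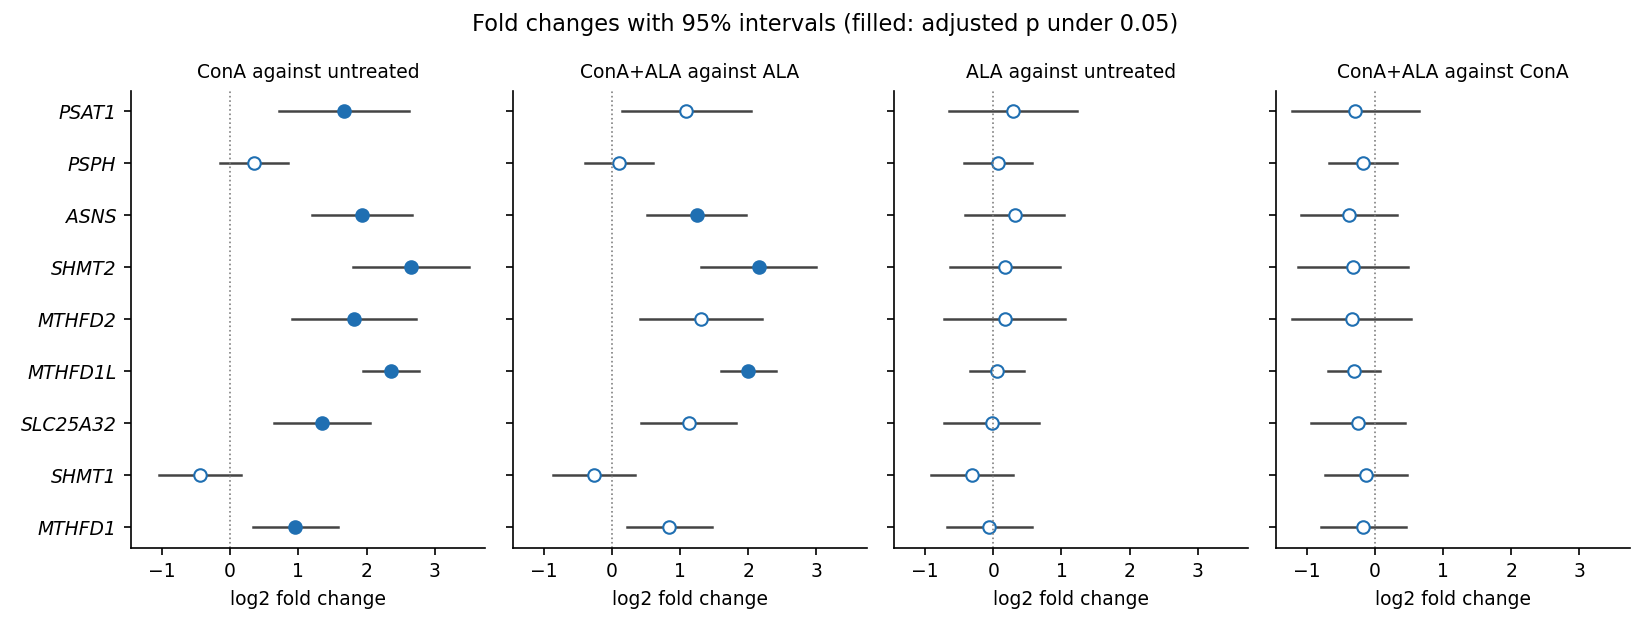
Log2 fold changes of the 9 genes (points) with 95% intervals (lines) in 4 comparisons, filled where the adjusted p was under 0.05 in the fit without the block. In the comparisons that add ConA 7 and 3 genes are filled, and in the comparisons that add ALA none is. With the block SHMT1 also fell with ConA, and 6 genes rose in ConA+ALA against ALA.

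Per length, the order of the genes changed with ConA. In untreated cells SHMT1 was the most abundant, with 264, 146 and 103 TPM in libraries 1 to 3, above every value of MTHFD1 (72.5, 36.6 and 30.4 TPM). MTHFD1, SHMT2 (40.5 ± 2.9 TPM, SD, n = 3), PSAT1, PSPH and MTHFD1L followed, and each overlapped its neighbour in that order. SLC25A32 (7.7 ± 3.5 TPM) lay above ASNS (2.8 ± 1.0 TPM) without overlap. With ConA SHMT2 had the highest mean, 183, 217 and 156 TPM, and SHMT1 came next with 173, 52.7 and 68.8 TPM. These 2 overlapped in ConA cultures through library 1, and in ConA+ALA cultures they did not (145 to 169 TPM against 57.2 to 144 TPM).

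The summed TPM of the mitochondrial enzymes SHMT2, MTHFD2 and MTHFD1L was 63.6 to 76.6 in untreated libraries and 223 to 353 with ConA. The sum of the cytosolic enzymes SHMT1 and MTHFD1 was 133 to 336 in untreated libraries and 90.1 to 308 with ConA. The mitochondrial sum divided by the cytosolic sum was 0.228, 0.349 and 0.482 in untreated libraries 1, 2 and 3, and 1.15, 3.098 and 1.98 with ConA. The groups did not overlap, and number 1 had the lowest value in both.

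To test whether mitochondrial and cytosolic partners changed unequally, the log2 ratio of their exon reads was compared between the 6 libraries with ConA and the 6 without, irrespective of ALA. Such a ratio is taken within a library and does not depend on library scaling. SHMT2 to SHMT1 averaged 0.67 ± 0.76 (SD, n = 6) with ConA and −2.09 ± 0.74 without, a difference of 2.76 or 6.79-fold (exact permutation test, 2-sided, p = 0.0022, adjusted over 3 ratios 0.0032). The 2 sets of libraries did not overlap, and the difference was 2.68, 3.30 and 2.30 in numbers 1, 2 and 3. MTHFD1L to MTHFD1 averaged 0.04 ± 0.28 with ConA and −1.27 ± 0.26 without, a difference of 1.32 or 2.49-fold (exact permutation p = 0.0022, adjusted 0.0032), also without overlap. The p of 0.0022 is the smallest that 6 against 6 can give. It counts the 2 libraries of a number on each side as separate samples, although libraries of 1 number vary together.

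MTHFD2 to MTHFD1 differed by 0.64 (−2.00 ± 0.21 against −2.64 ± 0.46, exact permutation p = 0.013, adjusted 0.013), with overlap. Its difference was 0.90, 0.93 and 0.09 in the 3 numbers, and it did not pass without the libraries of number 1 (0.51, exact permutation p = 0.17) or number 2 (0.50, exact permutation p = 0.057). Libraries of 1 number vary together, so labels were also exchanged within numbers only. This gave exact permutation p of 0.0093, 0.0093 and 0.019 for the ratios in the order given, where 0.0093 is the smallest possible. It still counts 2 libraries per number on each side. With 1 difference per number, sign-flips over the 3 numbers gave exact permutation p = 0.25 for each ratio. That is the smallest possible, so no ratio can pass with the number as the unit.

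**Figure D3:**
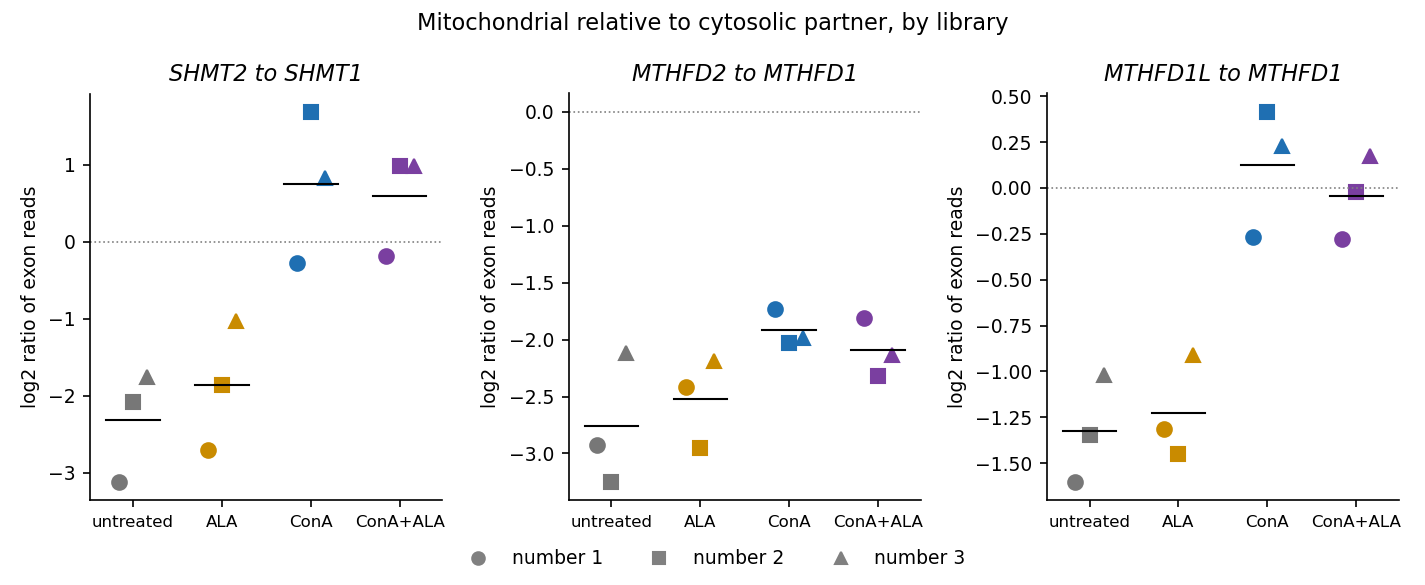
Log2 ratio of exon reads of a mitochondrial enzyme to its cytosolic partner (vertical axes) in each of the 12 libraries by group, with the number as marker shape and a bar at the group mean. For SHMT2 to SHMT1 and for MTHFD1L to MTHFD1 all 6 libraries with ConA lie above all 6 without, and for MTHFD2 to MTHFD1 they overlap.

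Intron reads, which come mostly from unspliced transcripts and are counted apart from exon reads, gave a second readout of the same genes. It was chosen after the data were seen. With ConA, intron reads of SHMT2 (log2 fold change 2.81 ± 0.31, adjusted p = 0.00068), PSAT1 (2.34 ± 0.39, adjusted p = 0.0053), MTHFD1L (2.08 ± 0.41, adjusted p = 0.012) and SLC25A32 (1.29 ± 0.28, adjusted p = 0.018) rose, 4 of 9 genes, beside 4.16% of 15305 genes tested on intron reads. Of the reads within SLC25A32 67.7% were intronic, and the annotated gene spans FZD6 on the opposite strand. Reads of FZD6 cannot be told apart from its own intron reads.

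Intron reads of PSAT1 numbered 58, 69 and 100 in untreated libraries and 504, 266 and 270 with ConA. Those of SHMT2 numbered 83, 99 and 69, and 532, 686 and 371 with ConA. MTHFD1 (0.63 ± 0.20, adjusted p = 0.078), ASNS (1.22 ± 0.60, adjusted p = 0.27) and SHMT1 (−0.39 ± 0.23, adjusted p = 0.37) did not pass, each with the sign of its exon reads. For PSPH the sign differed (−0.23 ± 0.26, adjusted p = 0.70). MTHFD2 stood at 0.33 ± 0.20 (adjusted p = 0.40), and its introns hold MOB1A.

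**Figure D4:**
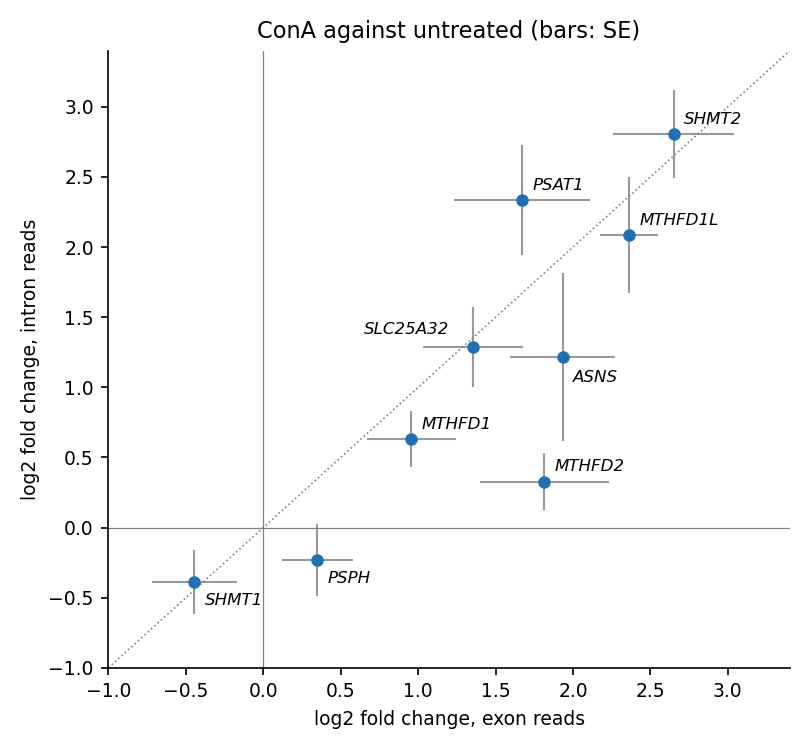
Log2 fold change of ConA against untreated from exon reads (horizontal axis) and from intron reads (vertical axis) for the 9 genes, with SE bars and a dotted line of equal change. SHMT2 and MTHFD1L lie near the line, and MTHFD2 lies below it, at 1.82 and 0.33.

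The same comparison in the presence of ALA, ConA+ALA against ALA, had 3 of the 9 genes higher and 0 lower, beside 5.09% of all genes higher and 3.03% lower. This comparison has no library in common with that of ConA against untreated. It shares the numbers, whose libraries varied together, and the estimate of spread, so it is not an independent repeat. MTHFD1L had 34.3, 27.7 and 34.8 CPM with ALA and 144, 126 and 118 with both (2.00 ± 0.19, adjusted p = 0.00033). SHMT2 had 43.4, 73.9 and 96.3 CPM with ALA and 233, 380 and 337 with both (2.15 ± 0.38, adjusted p = 0.0070). In both genes the groups did not overlap. The SHMT2 call was lost without number 2, where no gene passed, or number 3 (adjusted p up to 0.17). That of MTHFD1L was lost without number 2 or with intron reads (adjusted p up to 0.088).

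ASNS had 2.69, 3.53 and 5.20 CPM with ALA and 10.05, 10.3 and 6.53 with both (1.24 ± 0.33, adjusted p = 0.040), and ALA 3 lay above the other ALA libraries. This call was lost in 7 of the 12 fits without 1 library, those without ALA 1, ALA 2, untreated 2, ConA 2, ConA 3, ConA+ALA 1 or ConA+ALA 2, with adjusted p up to 0.15. It was also lost without a filter, with total gene or intron reads, with only the compared groups in the fit, without any 1 number and with the block without number 1, in 15 of 27 alternatives in all.

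SLC25A32 (1.13 ± 0.32, adjusted p = 0.052), MTHFD2 (1.31 ± 0.41, adjusted p = 0.074), MTHFD1 (0.84 ± 0.29, adjusted p = 0.097) and PSAT1 (1.096 ± 0.43, adjusted p = 0.15) were above 0 and did not pass. With the replicate block 6 genes rose, the first 3 of these included, beside 15.8% of all genes, and PSAT1 stood at an adjusted p of 0.054. In 6 of the 9 genes all libraries with both lay above all with ALA in CPM, as in 14.9% of all genes. In TPM the groups of MTHFD1, MTHFD2 and SLC25A32 overlapped here too. SHMT1 was at −0.26 ± 0.28 (adjusted p = 0.65) and PSPH at 0.10 ± 0.23 (adjusted p = 0.86). Without ConA 1, 6 of the 9 genes rose in this comparison, although that library is in neither group, beside 740 of 13770 genes.

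To describe ALA in resting cells, ALA cultures were compared with untreated ones, which also served as controls above. None of the 9 genes passed, and neither did any of the 13358 genes (edgeR, 155 at an unadjusted p under 0.05, none of them among the 9, and 4 genes called by DESeq2, again none of the 9). With the block 6 genes, 0.0449% of all, were called, and none of the 9 was among them. Log2 fold changes ran from −0.32 to 0.31, with a median of 0.07 against 0.00 over all genes. MTHFD1L had 31.5, 29.0 and 32.7 CPM in untreated libraries and 34.3, 27.7 and 34.8 with ALA, a difference of 0.05 ± 0.18 with a 95% interval of −0.34 to 0.45. That interval is the narrowest of the 9, and those of PSAT1 (−0.65 to 1.22) and MTHFD2 (−0.72 to 1.05) reach past a 2-fold rise.

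SHMT1 was lower with ALA in each number, by −0.39, −0.25 and −0.30 on the log2 scale. Its CPM was 374, 317 and 242 in untreated libraries and 285, 268 and 197 with ALA, so that the groups overlapped. The fold change was −0.32 ± 0.28 (unadjusted p = 0.27) and with the block −0.31 ± 0.13 (unadjusted p = 0.034, adjusted p = 0.76). Of all genes 15.9% were lower in 3 of 3 numbers in this comparison. PSAT1 was higher in each number, by 0.03, 0.19 and 0.44 (0.29 ± 0.43 in the fit, unadjusted p = 0.51), as were 14.8% of all genes.

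In ConA-stimulated cells, ConA+ALA was compared with ConA, whose libraries also enter the comparison with untreated cells. Again 0 of the 9 genes passed, and 0 of all genes (edgeR, 445 at an unadjusted p under 0.05, none of them among the 9, with 49 genes called by DESeq2 and 74, or 0.554%, with the block, none of the 9). All 9 fold changes were below 0, from −0.38 to −0.13 with a median of −0.29, against −0.03 over all genes. MTHFD1L, at 184, 161 and 134 CPM with ConA and 144, 126 and 118 with both, had a fold change of −0.31 ± 0.18 (95% interval −0.69 to 0.08). With the block it was −0.31 ± 0.13 (unadjusted p = 0.035, adjusted p = 0.44).

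SHMT2, MTHFD2, MTHFD1L, SLC25A32 and ASNS, 5 of the 9, were lower in each of the 3 numbers, as were 18.1% of all genes. SHMT2 stood at 589 CPM with ConA and 380 with both in number 2, and at 345 and 337 in number 3, so the size differed between numbers. The sign of the fold change of 5 genes, PSAT1, MTHFD2, SLC25A32, SHMT1 and MTHFD1, turned when ConA 1 was left out, to between 0.03 and 0.21. That of SHMT2 turned without ConA 2, to 0.08, and that of SHMT1 also without ConA+ALA 3, to 0.004. The summed CPM of 8 cell division genes was 833 to 1024 with ConA and 561 to 718 with both, against 141 to 224 in untreated cells. The summed CPM of 8 neutrophil markers was 75.9 to 155 with ConA and 658 to 2408 with both, most of it from MMP9 (65.7 and 1226 CPM on average), and CXCR2 was at 0 in both groups. The part of either in these values was not tested.

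The test of whether ALA acted differently with and without ConA gave 0 of the 9 genes and 0 of all genes (edgeR, 222 at an unadjusted p under 0.05, none among the 9, with 4 called by DESeq2 and 0 with the block). The interaction terms ran from −0.69 ± 0.46 for ASNS to 0.19 ± 0.39 for SHMT1, with a median of −0.36 against −0.02 over all genes. The intervals were wide, from −1.70 to 0.32 for ASNS and from −1.90 to 0.74 for PSAT1. MTHFD1L had the narrowest, from −0.91 to 0.19.

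The genes around the pathway were taken from lists written from general knowledge, with earlier results of these data known. They are given by counts and medians for ConA against untreated, where the median over all genes was −0.05, 9.93% rose and 8.57% fell. Counts with the block stand beside 21.3% of all genes that rose and 21.2% that fell in that model. Of the other folate genes 11 were tested, of which 2 rose and 0 fell, with a median of 0.20. TYMS, which uses folate to make thymidylate, rose from 37.4 to 158 CPM (2.08 ± 0.22, adjusted p = 0.00024), and SLC19A1, a folate carrier of the cell membrane, rose from 15.7 to 39.9 (1.35 ± 0.38, adjusted p = 0.028). The SLC19A1 call was lost without ConA 1 (log2 fold change 0.91, adjusted p = 0.11), untreated 2 (adjusted p = 0.10) or untreated 3 (adjusted p = 0.065). ALDH1L2, a mitochondrial enzyme that oxidises formyl-folate, was low, at 0.55 CPM in untreated cells and 2.05 with ConA (1.85 ± 0.86, adjusted p = 0.16). FPGS, which retains folate in cells, stood at 0.68 ± 0.24 (adjusted p = 0.065). With the block 3 rose and 1 fell.

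The glycine cleavage system, which breaks down the glycine that SHMT2 makes, had 4 genes with a row. Only 3 of the 4 had enough reads to be tested, so the system was covered in part. AMT, its aminomethyltransferase, fell from 113 to 48.3 CPM (−1.23 ± 0.26, adjusted p = 0.0078), and DLD, a dehydrogenase shared with other mitochondrial complexes, rose (0.70 ± 0.19, adjusted p = 0.023). The DLD call was lost without untreated 1 (adjusted p = 0.085), ConA 1 (adjusted p = 0.076) or untreated 2 (adjusted p = 0.071). GCSH stood at 0.92 ± 0.46 (adjusted p = 0.19) and rose with the block.

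Of 8 tested purine synthesis genes, whose pathway takes up folate-bound carbon, 3 rose and 0 fell, with a median of 1.06. ATIC, which adds the last such carbon, rose from 65.3 to 224 CPM (1.78 ± 0.20, adjusted p = 0.00036). IMPDH2 (1.88 ± 0.26, adjusted p = 0.00093) and GMPS (1.34 ± 0.22, adjusted p = 0.0020), both of guanine nucleotide synthesis, rose as well. PRPS1 stood at 1.05 ± 0.38 (adjusted p = 0.072). With the block 5 rose.

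Of 9 tested genes of the methionine cycle and its branches, 3 rose and 0 fell, with a median of 0.85. The spermidine synthase SRM rose from 40.8 to 258 CPM (2.66 ± 0.40, adjusted p = 0.0012), CTH, which makes cysteine, from 1.90 to 10.99 (2.53 ± 0.45, adjusted p = 0.0031), and MAT2A, which makes S-adenosylmethionine, from 154 to 294 (0.93 ± 0.18, adjusted p = 0.0042). AMD1 stood at 0.85 ± 0.29 (adjusted p = 0.063). With the block 5 rose and 3 fell.

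Among 11 tested genes of serine carriers and serine use, 2 rose and 0 fell, with a median of 0.35. These were the neutral amino acid carriers SLC1A5 (1.63 ± 0.37, adjusted p = 0.011) and SLC38A1 (1.06 ± 0.33, adjusted p = 0.046). The SLC38A1 call was lost in 7 of the 12 fits without 1 library, those without untreated 1, untreated 2, untreated 3, ConA 1, ALA 2, ALA 3 or ConA+ALA 2, with adjusted p up to 0.20, and its log2 fold change without ConA 1 was 0.60. SLC38A2 stood at −0.50 ± 0.19 (adjusted p = 0.082) and SERINC3 at −0.58 ± 0.29 (adjusted p = 0.20). With the block 4 rose and 2 fell.

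Of 7 tested enzymes of other nonessential amino acids 4 rose and 0 fell, with a median of 1.08. PYCR1, the last enzyme of proline synthesis, rose from 2.96 to 30.2 CPM (3.34 ± 0.40, adjusted p = 0.00047), and the aspartate aminotransferases GOT1 (1.22 ± 0.22, adjusted p = 0.0030) and GOT2 (1.16 ± 0.20, adjusted p = 0.0026) rose. ALDH18A1, also of proline synthesis (1.08 ± 0.35, adjusted p = 0.049), passed only narrowly, and its call was lost in 10 of the 12 fits without 1 library, all but those without untreated 3 or ALA 3, with adjusted p up to 0.19 and log2 fold changes down to 0.68.

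**Figure D5:**
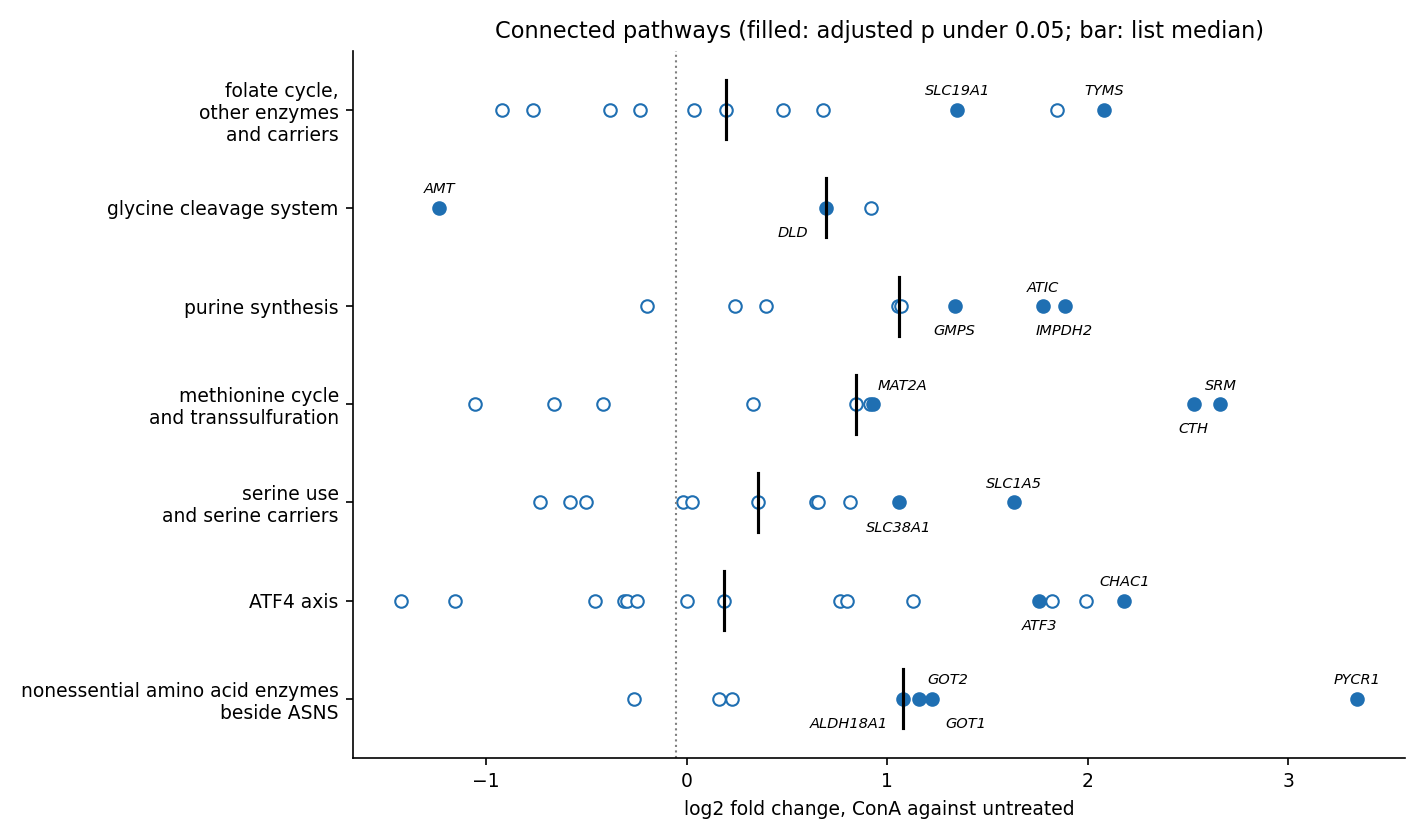
Log2 fold change of ConA against untreated (horizontal axis) for each tested gene of 7 connected lists (rows). Points are filled where the adjusted p was under 0.05 in the fit without the block. A bar marks each list's median and a dotted line the median of all genes, −0.05. PYCR1 lies farthest right at 3.34, and AMT at −1.23 is the only filled point below 0.

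ATF4 itself, a transcription factor that activates amino acid synthesis genes, had 1112 CPM in untreated cells and 2431 with ConA. Its log2 fold change was 1.13 ± 0.55 (adjusted p = 0.18), and the gene passed only in the model with the block (1.11 ± 0.14, adjusted p = 1.6e-05). Of 15 tested genes of the ATF4 axis, in which ATF4 is counted, 2 rose and 0 fell, with a median of 0.18. CHAC1, which degrades glutathione, rose from 1.48 to 6.70 CPM (2.18 ± 0.56, adjusted p = 0.019). The transcription factor ATF3 rose from 6.10 to 20.7 CPM (1.76 ± 0.51, adjusted p = 0.032). CHAC1 lost its call without untreated 1 (adjusted p = 0.071) or untreated 2 (adjusted p = 0.061), and ATF3 without ConA 1 (adjusted p = 0.11), untreated 2 (adjusted p = 0.11) or untreated 3 (adjusted p = 0.090).

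TRIB3 (1.99 ± 0.69, adjusted p = 0.064) and CEBPG (0.77 ± 0.27, adjusted p = 0.072) did not pass, and both rose with the block (adjusted p = 0.013 and 0.028). TRIB3 was low, at 1.17 CPM in untreated cells and 4.65 with ConA. With the block 6 genes of the ATF4 axis rose and 1 fell. MYC, a growth factor-responsive regulator, stood at 0.28 ± 0.22 (adjusted p = 0.41) and NFE2L2, the regulator of antioxidant genes, at 0.15 ± 0.31 (adjusted p = 0.79). Neither passed with the block, and the sign of NFE2L2 turned without number 1 (−0.07).

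Across the 12 libraries, MTHFD1L followed the mean of the other 8 genes most closely (Pearson r 0.95 on log2 CPM), then ASNS (0.94) and SLC25A32 (0.93), while PSPH (0.44) and SHMT1 (−0.41) followed it least. These are descriptions, as the libraries share numbers and treatments. The genes outside the list with the profile closest to the mean of the 9 were POLE, MPHOSPH10, COQ10A, HSPA4, DDX21, MRPL3, MCM3 and HAT1, with r from 0.98 to 0.99. Their log2 fold changes with ConA, 0.96 to 2.57, follow from that choice and are given as a description.

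Other cell type markers also differed with ConA, and their part in the values above was not tested. Over all genes 9.93% rose and 8.57% fell, and with the block 21.3% rose and 21.2% fell. Of 12 tested T cell markers 1 rose and 4 fell (8 with the block), with summed levels of 1290 to 2267 CPM in untreated libraries and 830 to 1445 with ConA. Of 10 monocyte markers 0 rose and 2 fell (7 with the block), with sums of 709 to 993 and 284 to 578 CPM, and of 9 B cell markers 0 rose and 2 fell (7 with the block), with sums of 1585 to 2725 and 1440 to 2488 CPM. None of these markers was at 0 in either group. Of 7 tested neutrophil markers 0 rose and 3 fell (4 with the block), with sums of 208 to 431 and 75.9 to 155 CPM. Of 6 tested NK and cytotoxic markers 1 rose and 1 fell (2 and 2 with the block), with sums of 87.2 to 217 and 219 to 582 CPM, and of 5 tested platelet and red cell markers none passed (2 fell with the block), with sums of 99.7 to 235 and 25.2 to 114 CPM. Of 8 tested cell division genes 7 rose and 0 fell, with a median of 2.42.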

How the data were processed

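The 12 libraries were made from poly(A) RNA with NEBNext Ultra II kits and read as 75 bp pairs, per the labels' protocols. The build is CanFam3.1, per the submitters' processing notes. The aligner, counter and strand setting were not given in the sources used here. Each deposited table holds, per the file headers, total and unique exon, intron, junction and gene reads as counts without normalization, TPM and RPKM; the authors' TPM described levels per length, and the authors' RPKM values were not used. All exon reads of the 9 genes were unique.

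Differences in exon counts were fitted in edgeR 4.0.16 under R 4.3.3 (TMM, filterByExpr, robust quasi-likelihood F-test, 4 group means over 12 libraries, Benjamini-Hochberg adjustment over 13358 genes). SE is the fold change divided by the root of F. Ratios used a pseudocount of 0.5 and exact permutation tests (scipy 1.17.1). Alternatives were DESeq2 1.42.0, limma-voom (limma 3.58.1), other size factors, filters and reads counted, libraries left out and the replicate number as a block. Deviations from group means correlated at 0.38 to 0.75 in 18 pairs of equally numbered libraries and at −0.50 to 0.21 in other pairs of different groups. The shared numbers in the titles were therefore taken as pairs. Counts are given first from the fit without the block, which the figures also show. The block's value is given after it and stands where it changes a call. The 10 names, the lists and the tests were chosen with earlier results of these data known. Named genes are the 9 genes, up to 4 per list by smallest p in ConA against untreated, ATF4, MYC and NFE2L2, and the 8 genes of closest profile with at least 10 CPM. FZD6, MOB1A and BOLA3 were named for their position, and MMP9 and CXCR2 after their values were seen. No sequences are shown.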

Additional observations from a re-analysis of the deposited data

How the results depend on the processing

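For ConA against untreated 7 of the 9 genes were called, beside 1326 of 13358 genes higher. The count was 4 with intron reads (637 of 15305 genes higher) and 5 with total gene reads (1470 of 17055). It was 6 without a filter (1129 of 20979) and 6 with only the compared groups (870 of 12573). Over the fits without 1 library or 1 number it ran from 1 to 7. It was 4 without ConA 1 (1030 of 13770) or untreated 2 (887 of 13776). Without number 1 it was 6 (1278 of 13310), without number 2 it was 1 (42 of 13595) and without number 3 it was 4 (592 of 13513). For ConA+ALA against ALA the count was 3, beside 680 of 13358 genes higher. It became 5 with DESeq2 (1021 of 13358), 6 with the replicate block (2109 of 13358) and 5 with the block without number 1 (1210 of 13310). It became 2 without a filter (535 of 20979), 2 with only the compared groups (498 of 12500) and 1 with intron reads (1.04% of all genes). Without ConA 1 it was 6 (740 of 13770). Leaving out number 1 gave 4 (631 of 13310), and leaving out number 3 gave 1 (100 of 13513). Without number 2 it was 0, and 0 of 13595 genes passed (edgeR, 1692 at an unadjusted p under 0.05, 4 of them among the 9). The median of the 9 was 1.11 in that fit. In the other comparisons it was 0 under every setting run. The block added the calls of SHMT1, MTHFD2, SLC25A32 and MTHFD1 given above and changed no other call of the 9 genes. Intron reads, the block without number 1 and the exchange of labels within numbers were chosen after the data were seen.

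The ratio differences SHMT2 to SHMT1, MTHFD2 to MTHFD1 and MTHFD1L to MTHFD1 were 2.76, 0.64 and 1.32 with the replicate block as sign-flips within 3 numbers (exact permutation p = 0.25, the smallest possible). They were 3.07, 0.85 and 1.45 for untreated against ConA alone (exact permutation p = 0.1, the smallest possible) and 2.46, 0.43 and 1.18 for ALA against ConA+ALA alone (adjusted exact permutation p = 0.15, 0.2 and 0.15). With libraries or numbers left out they ran from 2.49 to 2.99, from 0.50 to 0.91 and from 1.18 to 1.39.

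Signs turned in these cases, none of which had passed a test. With intron reads PSPH was at −0.23 in ConA against untreated, 0.10 in ConA+ALA against ConA and −0.27 in ConA+ALA against ALA, MTHFD2 at −0.14 and MTHFD1 at 0.093 in ALA against untreated, and SHMT1 at 0.0081 in ConA+ALA against ConA. With total gene reads PSPH was at −0.044 in ConA+ALA against ALA and MTHFD2 at −0.11 in ALA against untreated. With the block without number 1 MTHFD1 was at 0.0066 in ALA against untreated and NFE2L2 at −0.077 in ConA against untreated. With libraries or numbers left out, ALA against untreated ran from −0.35 to 0.75 for PSAT1, −0.10 to 0.26 for PSPH, −0.11 to 0.43 for SHMT2, −0.060 to 0.39 for MTHFD2, −0.0016 to 0.15 for MTHFD1L, −0.26 to 0.16 for SLC25A32, −0.17 to 0.11 for MTHFD1 and −0.11 to 0.53 for ASNS. ConA+ALA against ConA ran from −0.46 to 0.029 for PSAT1, −0.56 to 0.078 for SHMT2, −0.78 to 0.18 for MTHFD2, −0.53 to 0.11 for SLC25A32, −0.34 to 0.16 for SHMT1 and −0.40 to 0.21 for MTHFD1. ConA+ALA against ALA ran from −0.038 to 0.28 for PSPH. The interaction ran from −1.04 to 0.060 for PSAT1, −0.94 to 0.016 for MTHFD2, −0.51 to 0.13 for SLC25A32, −0.021 to 0.47 for SHMT1 and −0.34 to 0.27 for MTHFD1. NFE2L2 ran from −0.074 to 0.43 in ConA against untreated. The cause of these changes was not tested.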

Other observations

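In ConA+ALA against ConA no gene of the connected lists passed, and their values were mostly below 0. Fold changes above 0 were seen in 1 of 11 tested other folate genes (median −0.24), 0 of 8 purine synthesis genes (median −0.19) and 1 of 7 other nonessential amino acid enzymes (median −0.28). The ATF4 axis (6 of 15 above 0, median −0.02), the methionine cycle genes (median −0.07) and the serine carriers and users (median −0.07) lay closer to the median of all genes, −0.03. In the cell division list 1 of 8 was above 0 (median −0.55). In ConA+ALA against ALA 3 of 8 purine synthesis genes, 3 of 9 methionine cycle genes and 3 of 7 nonessential amino acid enzymes rose, as did 1 of 11 other folate genes, 0 of 11 serine carriers and users, 0 of 15 genes of the ATF4 axis and 0 of 3 of the glycine cleavage system, beside 5.09% of all genes. In that comparison 1 gene of these lists, AMT of the glycine cleavage system, fell, beside 3.03% of all genes.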
